A study of Mus musculus with 12 samples.

Results

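The 30 genes described here encode enzymes of sterol and fatty acid synthesis and the proteins that control them, and their RNA was followed from mouse embryonic stem cells (mESC) into differentiating cultures. They were taken by name from a list that was chosen with earlier results of these data known. Of the 30, 17 belong to the sterol branch, 7 to the fatty acid branch, and 6 are regulators or sterol transport proteins. They were read by 52 of the 41174 probes on the array, and all 30 were well above background on all 12 arrays, among 20875 genes tested in all.

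Culture plates carried a coat of crosslinked elastin-like polypeptide (ELP), a polymer patterned on the matrix protein elastin. The study compared mESC with cells at day 9 and day 14 of cardiomyocyte differentiation. Each of the 3 groups had 4 arrays. The labels name a medium lacking LIF, the factor that holds mouse stem cells undifferentiated, for 2 days, and then a medium with 2.5% serum replacement for 12 days. This growth text is the same for all samples, and the labels give neither the stem cell line nor when the mESC samples were taken. Nor do they call the replicates separate cultures. The p-values therefore reflect the spread among these samples alone, and that spread may be technical.

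Cholesterol is built from acetyl-CoA through mevalonate, isoprenoid diphosphates, squalene and lanosterol, and fatty acids are built from the same precursor by carboxylation, chain extension and desaturation. Transcription of both branches is controlled by the sterol regulatory element binding proteins, encoded by Srebf1 and Srebf2. Scap escorts these factors to the Golgi for activation, and the Insig proteins hold Scap in the endoplasmic reticulum when sterols are plentiful. The factor from Srebf2 is best known for sterol genes and that from Srebf1 for fatty acid genes, and at promoters they commonly act with factors that bind CCAAT boxes and GC boxes.

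Promoter sequence was found for 24 of the 30 genes in a RefSeq table of GRCm38.p6 that covers 250 bases before and 50 after each transcript start. Fdps, Fdft1, Sqle, Scd1, Scd2 and Stard4 were not matched. On either strand a CCAAT box (CCAAT, or ATTGG in reverse) was present in 14 of 14 matched sterol genes, 3 of 5 fatty acid genes and 4 of 5 regulators and transport genes, against 41.1% of all 27025 genes in the table. In the last 100 bases before the start, a stretch chosen after the matches were seen, it was present in 13 of 14, 2 of 5 and 2 of 5, against 22% of all genes. A GC box (GGGCGG or its reverse) was present in 13 of 14, 2 of 5 and 5 of 5, against 38.2%. The E-box CACGTG was in 3 sterol genes (Dhcr7, Hsd17b7 and Sc5d), in no fatty acid gene and in Insig1 and Scap, against 8.09% of all genes. The core TCACCCC of the sterol response element was in Hmgcs1, Insig2 and Srebf2, against 5.61%, and the full sterol response element in 0 of 24, against 0.0999%. Only 27 of 27025 genes held that exact element, so 0 of 24 cannot tell these genes from others. Genes with several starts were counted if any window held the motif, which applied to 5 of the 24. These matches are letters in a window, with no test, and do not show binding.

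The 250 bases before the start are printed for 7 genes that differed in how their RNA moved, with the CCAAT box, the E-box and the sterol response core in capitals. They were chosen with the values known. Hmgcs1, Idi1, Sc5d and Dhcr7 are sterol genes that were higher at day 9 than in mESC, Ebp is the sterol gene that was lower, and Fasn and Elovl6 are fatty acid genes that were lower at day 14.
Hmgcs1 (chr13:119690101-119690350, + strand): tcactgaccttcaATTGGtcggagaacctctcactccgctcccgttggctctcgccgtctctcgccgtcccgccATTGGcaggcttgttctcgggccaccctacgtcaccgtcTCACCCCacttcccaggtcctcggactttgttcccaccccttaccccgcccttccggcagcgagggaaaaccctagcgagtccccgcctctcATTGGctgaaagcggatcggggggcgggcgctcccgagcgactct
Idi1 (chr13:8885356-8885605, + strand): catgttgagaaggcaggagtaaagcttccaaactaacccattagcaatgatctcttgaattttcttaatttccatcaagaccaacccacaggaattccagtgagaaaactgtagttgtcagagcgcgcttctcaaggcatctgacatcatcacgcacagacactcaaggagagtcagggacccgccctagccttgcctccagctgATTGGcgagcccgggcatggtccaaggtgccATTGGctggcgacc
Sc5d (chr9:42264301-42264550, - strand): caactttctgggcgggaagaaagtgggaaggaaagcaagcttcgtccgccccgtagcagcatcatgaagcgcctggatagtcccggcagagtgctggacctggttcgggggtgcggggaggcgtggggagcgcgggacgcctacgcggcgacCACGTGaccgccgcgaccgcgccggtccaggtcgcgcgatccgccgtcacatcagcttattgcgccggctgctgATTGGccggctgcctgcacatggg
Dhcr7 (chr7:143829964-143830213, + strand): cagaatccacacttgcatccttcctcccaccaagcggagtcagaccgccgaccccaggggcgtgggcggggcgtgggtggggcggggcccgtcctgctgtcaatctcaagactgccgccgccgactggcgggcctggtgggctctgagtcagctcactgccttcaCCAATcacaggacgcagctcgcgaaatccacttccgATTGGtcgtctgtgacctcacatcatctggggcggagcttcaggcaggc
Ebp (chrX:8193513-8193762, - strand): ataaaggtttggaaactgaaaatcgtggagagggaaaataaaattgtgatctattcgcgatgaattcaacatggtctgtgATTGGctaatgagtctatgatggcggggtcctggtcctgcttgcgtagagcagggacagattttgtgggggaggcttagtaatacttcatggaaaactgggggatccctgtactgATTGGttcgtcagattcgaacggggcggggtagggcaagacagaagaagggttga
Fasn (chr11:120824548-120824797, - strand): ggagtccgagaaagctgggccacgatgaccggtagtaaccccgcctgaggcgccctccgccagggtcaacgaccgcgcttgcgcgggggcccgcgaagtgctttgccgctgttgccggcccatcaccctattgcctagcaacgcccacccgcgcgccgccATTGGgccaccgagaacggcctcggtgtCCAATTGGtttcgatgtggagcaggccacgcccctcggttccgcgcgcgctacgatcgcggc
Elovl6 (chr3:129532136-129532385, + strand): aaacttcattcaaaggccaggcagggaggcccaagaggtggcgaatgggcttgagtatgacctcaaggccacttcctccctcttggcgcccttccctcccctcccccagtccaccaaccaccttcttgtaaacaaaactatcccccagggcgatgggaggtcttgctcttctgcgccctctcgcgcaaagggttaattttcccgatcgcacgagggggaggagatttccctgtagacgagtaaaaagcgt
Capitals appear in the promoters of all 5 sterol genes shown, Ebp included, and in Fasn, where CCAATTGG holds the box on both strands. None appear in Elovl6. Dhcr7 has 3 starts in the table, of which 1 is shown, and its E-box is not in the stretch printed.

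Values are log2 processed signals less the 75th percentile of their array, so 0 is the signal at that percentile, and a level is compared only with the same probe on other arrays. On mESC arrays that percentile was 346.8 to 386.4 signal units, on day 9 arrays 394.9 to 438.5, and on day 14 arrays 462.7 to 507.9. Between 59.5% and 67.9% of probes were well above background. Every group has its own slide and its own scan, which cannot be told apart from the group. Precision is limited by there being 4 arrays in a group. A change is a log2 fold change ± SE from limma with n = 4 arrays per group. Where a sign is said to depend on the scaling, 5 settings were compared: this one, quantile normalization, the array median, the percentile over probes above background on all arrays, and normexp background correction. The words rose, fell and called are kept for changes of 1 or more with a Benjamini-Hochberg adjusted p below 0.05. Because bulk RNA was read, fewer cells of a type and less RNA per cell cannot be told apart.

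At day 9 the median of the sterol branch stood higher than in mESC and that of the fatty acid branch did not. Of 17 sterol genes 5 rose and 0 fell, with a median change of 0.77. Of 7 fatty acid genes and 6 regulators and transport genes none was called, with medians of −0.24 and 0.25. The fatty acid median was 0.06 with quantile normalization. The summed level of the branch is in units of the 75th percentile. It was 146 to 153 in mESC, 156 to 170 at day 9 and 95.2 to 104 at day 14. The brightest probes, Fasn and Scd2, weigh most in that sum, and at day 9 they differed from mESC by −0.24 and 0.68. Of the 7 genes 5 were below mESC at day 9 and 2 above. The median of all genes was −0.16, and 20.1% of them were called higher and 21.0% lower, 41.0% in all. The 5 called members of 30 are thus a smaller share than in the background. With no minimum fold 16 of 17 sterol genes were higher and 1 lower, against 36.3% and 47.0% of all genes. Day 9 arrays lay wholly above mESC in 21 of 30 members and wholly below in 5, against 33.8% and 44.9% of all genes. On the 4 day 9 arrays the sterol median lay 0.68 to 0.85 above the mESC mean and the fatty acid median 0.13 to 0.30 below it.

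**Figure D1:**
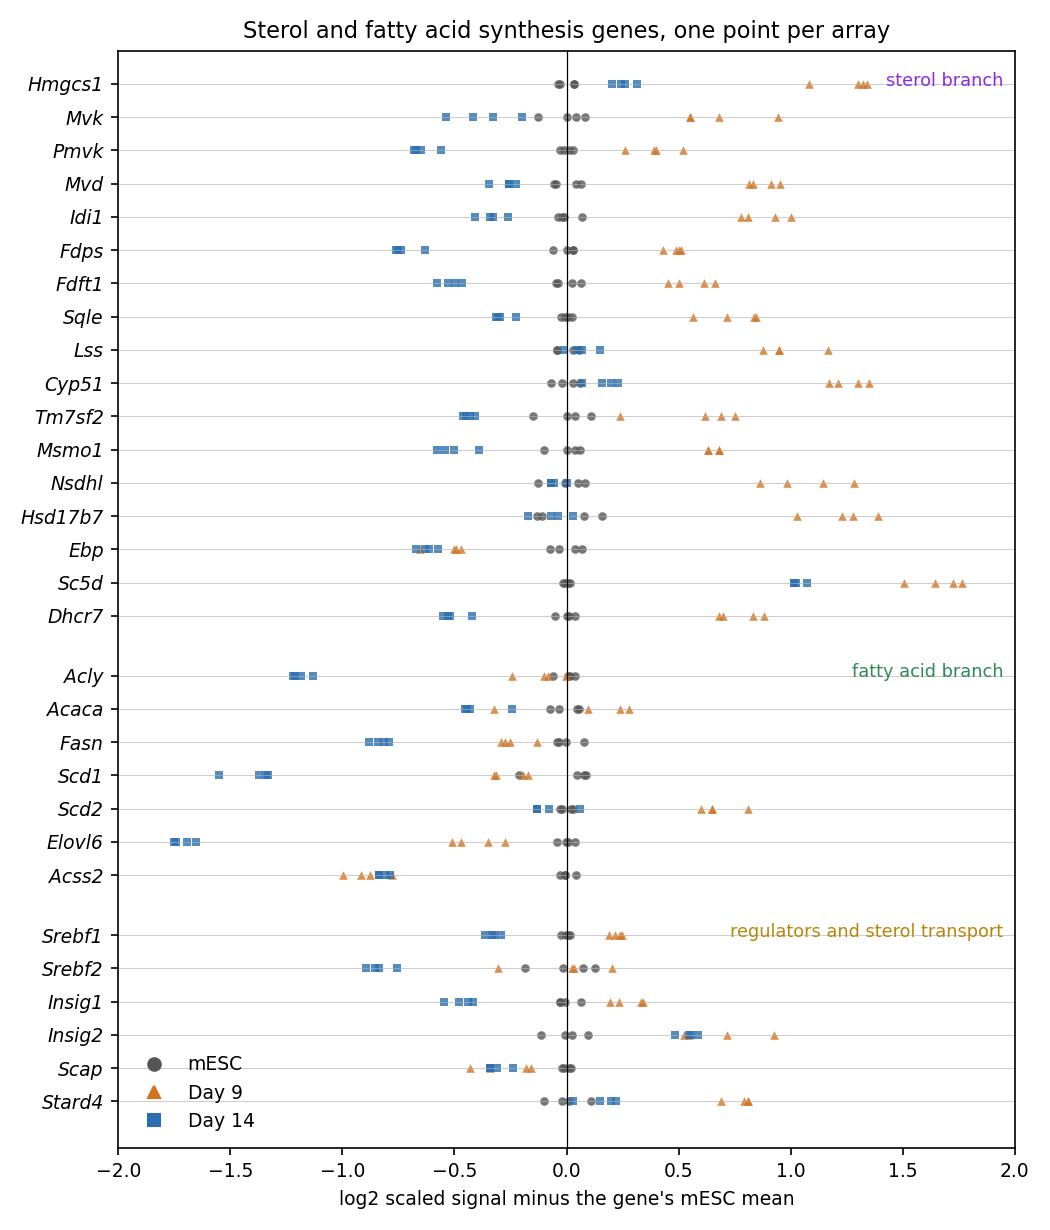
Log2 scaled signal of each of the 30 genes on each of the 12 arrays, less the mean of its 4 mESC arrays. Circles are mESC, triangles day 9 and squares day 14. In 16 of 17 sterol genes (all but Ebp) the day 9 triangles lie apart from and above the mESC circles, whereas in Acly, Scd1 and Elovl6 the day 14 squares lie farthest below.

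Among the mevalonate and isoprenoid enzymes, Hmgcs1, which makes HMG-CoA at the head of the pathway, read 4.28, 4.34, 4.27 and 4.34 in mESC. It read 5.39, 5.65, 5.61 and 5.63 at day 9, and 4.55, 4.62, 4.51 and 4.57 at day 14. The 3 groups did not overlap, and day 9 was highest on all its arrays, with replicate 1 below the others. Hmgcs1 rose by 1.27 ± 0.06 at day 9 (2.41-fold, adjusted p = 1.98e-09) and then fell by 1.01 ± 0.06 from day 9 to day 14 (adjusted p = 9.07e-08). Its day 14 level stood 0.25 from mESC, which turned to −0.07 under another scaling. The fall lies at the threshold and was −0.99 without Day 9 replicate 2 or replicate 4 and just short of −1.0 without Day 9 replicate 3 or Day 14 replicate 3, where it was not called. It was also not called with quantile normalization (−0.89) or with the percentile over probes above background on all arrays (−0.90). The other probe of Hmgcs1 rose by 1.46 ± 0.09 at day 9 and fell by 1.16 ± 0.09 between the days.

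The kinases and the decarboxylase that turn mevalonate into isopentenyl diphosphate were also higher at day 9, by less. At day 9 Mvk, mevalonate kinase, differed from mESC by 0.68 ± 0.10, Pmvk, phosphomevalonate kinase, by 0.39 ± 0.06, and Mvd, the decarboxylase, by 0.88 ± 0.05. None reached the minimum fold. From day 9 to day 14 all 3 fell, Mvk by 1.05, Pmvk by 1.03 and Mvd by 1.15. For Mvk the spread at day 9 was wide, 0.87 to 1.26, and the fall was −0.97 without Day 9 replicate 1 and just short of −1.0 without Day 14 replicate 3, not called in either case. The other probe of Mvk read −0.99 in that comparison. The probes of Pmvk disagreed at day 9, where the other probe differed by 0.02, and at day 14 against mESC, where it fell by 1.03 and the probe given here differed by −0.64.

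Idi1, which interconverts the isoprenoid diphosphates, read 2.96 to 3.07 in mESC, 3.78 to 4.00 at day 9 and 2.59 to 2.74 at day 14, with no overlap between groups. Its change of 0.88 ± 0.06 at day 9 missed the minimum fold, while its other probe rose by 1.21. From day 9 to day 14 Idi1 fell by 1.22 ± 0.06 (adjusted p = 1.44e-08). Fdps, farnesyl diphosphate synthase, fell by 1.20 ± 0.04 between the days, from 4.77 to 4.85 at day 9 to 3.58 to 3.71 at day 14, and was 0.72 ± 0.04 below mESC at the end.

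Squalene and lanosterol are made by Fdft1 (squalene synthase), Sqle (squalene epoxidase, a controlled step of the pathway) and Lss (lanosterol synthase). Their day 9 changes were 0.56 ± 0.05, 0.74 ± 0.06 and 0.99 ± 0.06. All 3 were above mESC on every day 9 array. Sqle read 4.68, 4.41, 4.56 and 4.69 there against 3.82 to 3.87 in mESC and 3.53 to 3.62 at day 14. Fdft1 and Sqle fell between the days, by 1.07 ± 0.05 and 1.03 ± 0.06, and Lss differed by −0.93 ± 0.06. Sqle was not called without Day 9 replicate 1 (just short of −1.0) or replicate 4 (−0.99). At day 14 Lss lay 0.06 from mESC (adjusted p = 0.405), a difference whose sign depended on the scaling, as did that of Sqle.

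The steps after lanosterol held 4 of the 5 genes that rose at day 9. Sc5d, a sterol desaturase, had the largest change of all members at day 9. It read 1.17, 1.16, 1.18 and 1.19 in mESC, 2.90, 2.68, 2.82 and 2.94 at day 9, and 2.25, 2.19, 2.19 and 2.20 at day 14. The groups did not overlap, and both differentiated groups stood above mESC. Sc5d rose by 1.66 ± 0.05 at day 9 (3.16-fold, adjusted p = 7.35e-11) and by 1.03 ± 0.05 at day 14 (2.05-fold, adjusted p = 3.68e-09), and was the only member that rose at day 14. That day 14 call was lost with median scaling (0.71) and with normexp correction (0.90). Between the days Sc5d differed by −0.63 ± 0.05.

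Cyp51, the lanosterol demethylase, read 0.73 to 0.86 in mESC, 1.97 to 2.15 at day 9 and 0.87 to 1.03 at day 14. It rose by 1.26 ± 0.05 at day 9 (adjusted p = 1.06e-09), and its other probes rose by 1.32 and 1.58. Nsdhl and Hsd17b7, which with Msmo1 remove methyl groups from the sterol ring, rose by 1.07 ± 0.08 and 1.23 ± 0.09. Nsdhl was widest at day 9, at 1.34, 1.06, 1.18 and 1.48, and its change was just short of 1.0 and not called without Day 9 replicate 4. It was also not called with normexp (0.98) or median scaling (0.94). The other probes of Nsdhl rose by 1.08 and 1.19 at day 9. All 3 genes fell again by day 14, Cyp51 by 1.09, Nsdhl by 1.12 and Hsd17b7 by 1.29. Their day 14 differences from mESC of 0.16, −0.05 and −0.06 changed sign with the scaling.

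Msmo1, the methylsterol oxidase, Dhcr7, which makes the last reduction to cholesterol, and Tm7sf2, a sterol reductase, differed from mESC by 0.66 ± 0.05, 0.77 ± 0.05 and 0.57 ± 0.10 at day 9, without being called. All 3 fell from day 9 to day 14, Dhcr7 by 1.28 ± 0.05 (2.42-fold, adjusted p = 6.52e-09), Msmo1 by 1.16 ± 0.05 and Tm7sf2 by 1.01 ± 0.10. Tm7sf2 was uneven at day 9, at 3.18, 2.73, 3.11 and 3.24. Its fall was −0.97, −0.99 and −0.95, and not called, without Day 9 replicate 1, 3 or 4.

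Ebp, the sterol isomerase, went the other way. It read 3.93 to 4.07 in mESC, 3.35 to 3.53 at day 9 and 3.33 to 3.43 at day 14, so both differentiated groups lay below mESC and overlapped each other. Its changes of −0.53 ± 0.05 and −0.62 ± 0.05 against mESC did not reach the minimum fold. Between the days it differed by −0.09 ± 0.05 (adjusted p = 0.144), with a sign that depended on the scaling. By stage, the median day 9 change was 0.78 for the 6 mevalonate and isoprenoid genes, 0.74 for the 3 squalene and lanosterol genes and 0.92 for the 8 genes after lanosterol, Ebp included.

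From day 9 to day 14, 14 of 17 sterol genes fell and 0 rose, with changes of −1.01 to −1.29 among them and a median of −1.07 over the branch. In the fatty acid branch 3 of 7 fell, with a median of −0.75, and of the regulators and transport genes none was called, with a median of −0.59. Of all genes 3.60% were called lower and 10.2% higher, 13.8% in all, with a median of −0.09. The 17 of 30 members called lower are a larger share than this background. Because the members were chosen with earlier results of these data known, this describes the list and tests nothing. Most of these calls sit close to the minimum fold. With no minimum fold 26 of 30 members were lower and 0 higher, against 37.9% and 25.5% of all genes. In 25 of 30 the day 14 arrays lay wholly below the day 9 arrays and in 0 wholly above, against 34.1% and 23.2%. Taking the 75th percentile over probes above background on all arrays left 9 members called lower, quantile normalization 12 and normexp 16, and median scaling gave 19. With the first of these Hmgcs1, Mvk, Pmvk, Fdft1, Sqle, Cyp51, Tm7sf2 and Acly were not called (−0.98 to −0.90), and with quantile normalization Hmgcs1, Pmvk, Fdft1, Sqle and Tm7sf2 were not (−0.97 to −0.89). All 17 called genes stayed below 0 with each of 5 scalings.

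**Figure D2:**
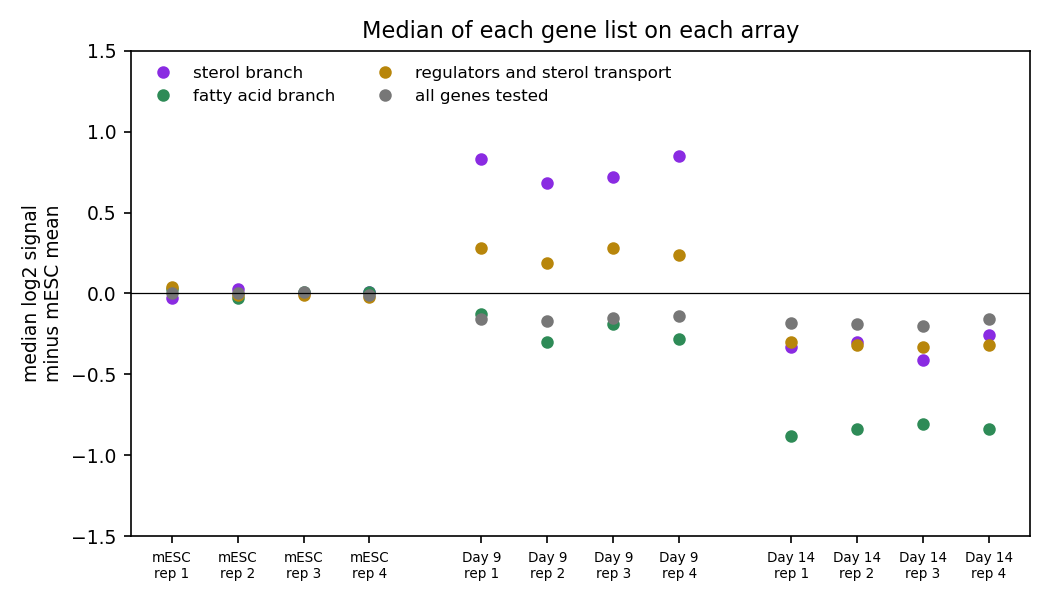
Median over the genes of each list of the log2 scaled signal less each gene's mESC mean, with a point for each of the 12 arrays. Sterol medians are 0.68 to 0.85 at day 9 and −0.41 to −0.26 at day 14, fatty acid medians are −0.30 to −0.13 and −0.88 to −0.81, and the medians of all genes stay between −0.20 and 0.01.

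Against mESC at day 14 the branches were again apart, with the fatty acid genes lower. Of 7 fatty acid genes 3 fell and 0 rose, with a median of −0.83. Of 17 sterol genes 1 rose and 0 fell, with a median of −0.33, and none of the 6 regulators and transport genes was called, with a median of −0.32. All genes had a median of −0.19, with 22.8% called higher and 24.0% lower, 46.8% in all, so the 4 called members of 30 are a smaller share than in the background. With no minimum fold 6 of 7 fatty acid genes and 11 of 17 sterol genes were lower, against 48.2% of all genes, and 0 and 3 were higher, against 36.9%. Day 14 arrays lay wholly above mESC in 4 of 30 members and wholly below in 21, against 36.2% and 47.7% of all genes. The direction of the sterol branch at day 14 depended on the scaling: relative to the median of all genes it ranged from −0.50 to 0.13 over 5 scalings, while the fatty acid branch ranged from −1.03 to −0.55. Both days share the mESC arrays, so the day 9 and day 14 changes are not independent.

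The difference between the branch medians, sterol less fatty acid, was 1.01 at day 9 and 0.50 at day 14, each against mESC, and −0.32 from day 9 to day 14. Its spread over arrays was 0.11, 0.09 and 0.12. Over 5 scalings it ranged from 0.99 to 1.03, from 0.50 to 0.68 and from −0.39 to −0.25. The sterol branch therefore stood above the fatty acid branch relative to mESC at both days, and its median change between the days was the more negative. These are descriptions of lists, without a test.

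**Figure D3:**
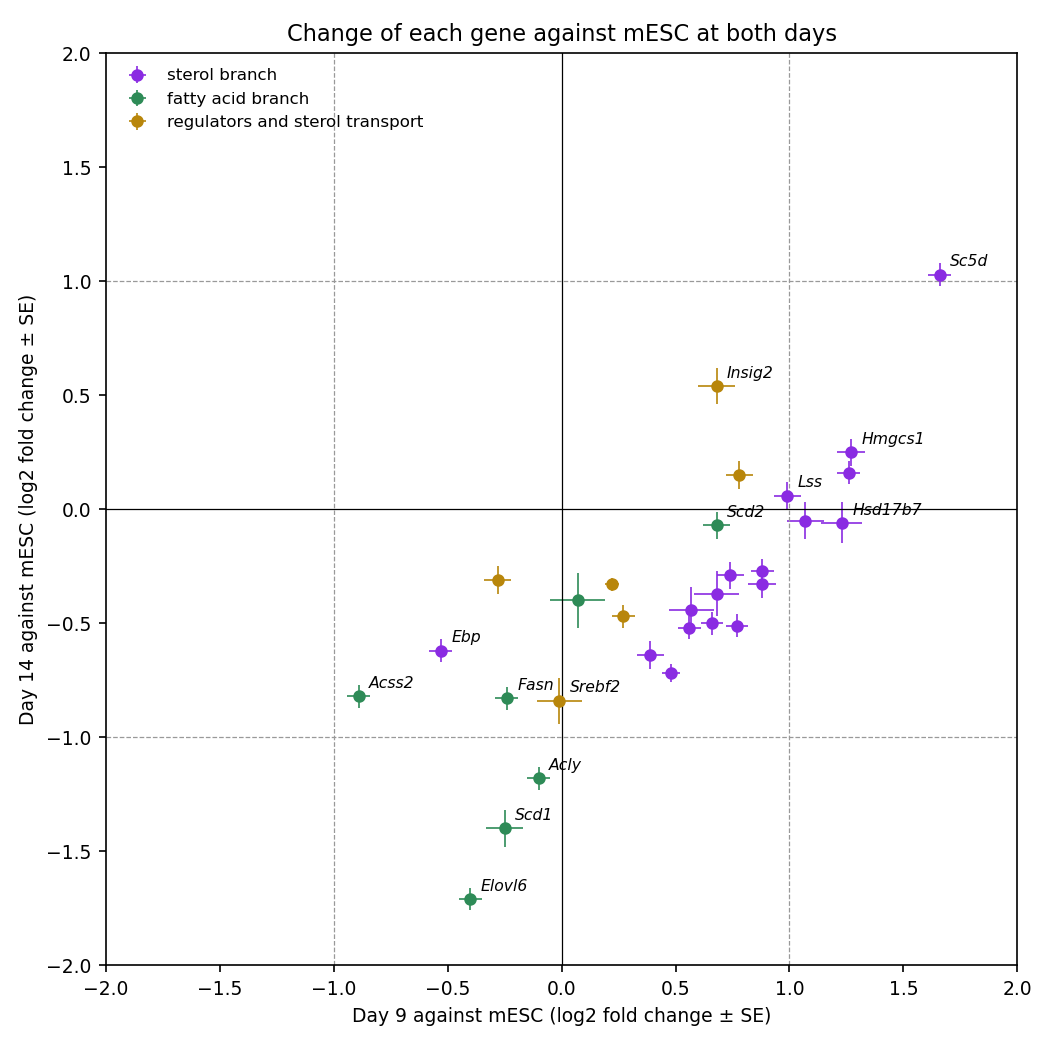
Change of each of the 30 genes against mESC at day 9 (horizontal) and day 14 (vertical), as log2 fold change ± SE with 4 arrays per group; dashed lines mark a change of 1. Sterol genes other than Ebp lie to the right with Sc5d farthest at 1.66 and 1.03, and Elovl6, Scd1 and Acly lie lowest at −1.71, −1.40 and −1.18; both axes share the mESC arrays.

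Within the fatty acid branch the genes that fell encode different steps. Elovl6, which extends palmitate to stearate, read 3.88, 3.80, 3.84 and 3.85 in mESC, 3.49, 3.33, 3.37 and 3.57 at day 9, and 2.10, 2.09, 2.15 and 2.19 at day 14. The groups did not overlap and went down in that order. Elovl6 fell by 1.71 ± 0.05 at day 14 against mESC (3.26-fold, adjusted p = 5.29e-11), and by 1.31 ± 0.05 from day 9 to day 14. At day 9 it differed from mESC by −0.40 ± 0.05.

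Scd1, a stearoyl-CoA desaturase that makes oleate, read 2.60, 2.61, 2.57 and 2.31 in mESC, 2.20 to 2.35 at day 9 and 1.15, 1.18, 1.19 and 0.97 at day 14. Its mESC and day 9 arrays overlapped through mESC replicate 4, and its day 14 arrays lay below all others. It fell by 1.40 ± 0.08 at day 14 against mESC (2.64-fold, adjusted p = 8.65e-09) and by 1.15 ± 0.08 between the days. Acly, which makes cytosolic acetyl-CoA from citrate and so feeds both branches, read 1.77 to 1.87 in mESC, 1.59 to 1.83 at day 9 and 0.61 to 0.70 at day 14. It fell by 1.18 ± 0.05 against mESC (2.27-fold, adjusted p = 9.16e-10) and by 1.08 ± 0.05 between the days. The percentile over probes above background on all arrays left the change between the days at −0.97, not called. Against mESC the call was lost with quantile normalization (−0.98) and with the percentile over probes above background on all arrays (−0.90).

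Fasn, fatty acid synthase, read 6.13 to 6.25 in mESC, 5.88 to 6.04 at day 9 and 5.29 to 5.38 at day 14, with no overlap. Its day 14 change of −0.83 ± 0.05 (adjusted p = 9.57e-09) did not reach the minimum fold. At day 9 it differed by −0.24, a sign that turned under another scaling and in its other probe (0.21). Acaca, the acetyl-CoA carboxylase that commits carbon to fatty acids, differed by 0.07 ± 0.12 at day 9 and −0.40 ± 0.12 at day 14. Its day 9 value changed sign with the scaling, and 2 further probes were too dim to test. Its other tested probe was dim, at −4.84 to −4.17 over the 12 arrays. That probe differed by 0.23 ± 0.13 at day 14 against mESC (limma over probes, adjusted p = 0.129).

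Acss2, which makes acetyl-CoA from acetate, stood below mESC at day 9 already. It read 0.83 to 0.90 in mESC, −0.14, 0.08, −0.02 and −0.06 at day 9, and 0.02 to 0.07 at day 14. Both differentiated groups lay below mESC and overlapped each other. Its changes of −0.89 ± 0.05 and −0.82 ± 0.05 against mESC were not called, and between the days it differed by 0.07, with a sign that depended on the scaling.

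Scd2, the desaturase paralogue, was higher at day 9 and back near its mESC level at day 14. It read 5.64 to 5.70 in mESC, 6.27, 6.32, 6.32 and 6.48 at day 9, and 5.54 to 5.73 at day 14. It differed by 0.68 ± 0.06 at day 9 and −0.75 ± 0.06 between the days, and its day 14 difference from mESC of −0.07 changed sign with the scaling. None of these was called.

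Of the regulators, Srebf2 differed by −0.01 ± 0.10 at day 9 (adjusted p = 0.916), a value that changed sign with the scaling. At day 14 it differed by −0.84 ± 0.10 (adjusted p = 9.82e-06). It read 1.43 to 1.74 in mESC, 1.31 to 1.82 at day 9 and 0.72 to 0.86 at day 14, so mESC and day 9 overlapped and day 14 lay below both. Srebf1 read 4.44 to 4.48, 4.65 to 4.71 and 4.10 to 4.17, and differed by 0.22 ± 0.03 at day 9 and −0.55 ± 0.03 between the days. Its day 14 difference from mESC of −0.33 turned positive under another scaling. Neither was called with the scaling used here. Of the 5 scalings, median scaling alone gave a lower call for Srebf2 at day 14 against mESC (−1.16, adjusted p = 4.03e-07) and for Srebf2 at day 14 against day 9 (−1.02, adjusted p = 4.23e-06).

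Insig1, itself a known target of the sterol-regulated factors, and Insig2 differed in pattern. Insig1 was 0.27 ± 0.05 above mESC at day 9 and 0.47 ± 0.05 below it at day 14, although its other probe read −0.27 at day 9. Insig2 read 1.08 to 1.29 in mESC, 1.72 to 2.12 at day 9 and 1.68 to 1.78 at day 14, which is 0.68 ± 0.08 and 0.54 ± 0.08 above mESC. Scap differed by −0.28 and −0.31 against mESC and by −0.03 between the days. The last 2 of these Scap values changed sign with the scaling. Stard4, a cytosolic sterol carrier, differed by 0.78 ± 0.06 at day 9 and −0.62 ± 0.06 between the days, and at day 14 by 0.15 against mESC, where the scaling set the sign.

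Paralogues were compared within each array, where a scaling by 1 factor per array cancels but quantile normalization and normexp correction do not, by exact two-sided permutation tests over 4 against 4 arrays. These pairs, and the other settings and probes given for them, were chosen after their values were seen, and 9 tests were made. The smallest p that 4 against 4 allows in this permutation test is 0.0286. Tests at that value came to 0.0367 after Benjamini-Hochberg adjustment over the 9 made here. The difference Scd2 less Scd1 grew by 0.93 from mESC to day 9, by 1.33 from mESC to day 14 and by 0.40 between the days, each at that smallest p. Its SD over arrays was 0.16 in mESC, 0.14 at day 9 and 0.19 at day 14. With quantile normalization the shifts of Scd2 less Scd1 were 1.13, 1.60 and 0.46, and with normexp 0.87, 1.08 and 0.22. Insig2 less Insig1 grew by 0.40, 1.01 and 0.60, again each at the smallest p, with SDs of 0.09, 0.20 and 0.02. With quantile normalization these shifts were 0.51, 1.24 and 0.73, and with normexp 0.42, 0.67 and 0.25. Over the other pairs of Insig probes they were 0.35 to 0.95, 0.90 to 1.32 and 0.32 to 0.55. Srebf1 less Srebf2 grew by 0.51 from mESC to day 14 at the smallest p. It grew by 0.23 at day 9 (exact permutation p = 0.114, adjusted 0.114) and by 0.27 between the days (exact permutation p = 0.0857, adjusted 0.0964). With the other probe of Srebf2 the shift at day 14 was 0.24 and that between the days turned to −0.13.

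**Figure D4:**
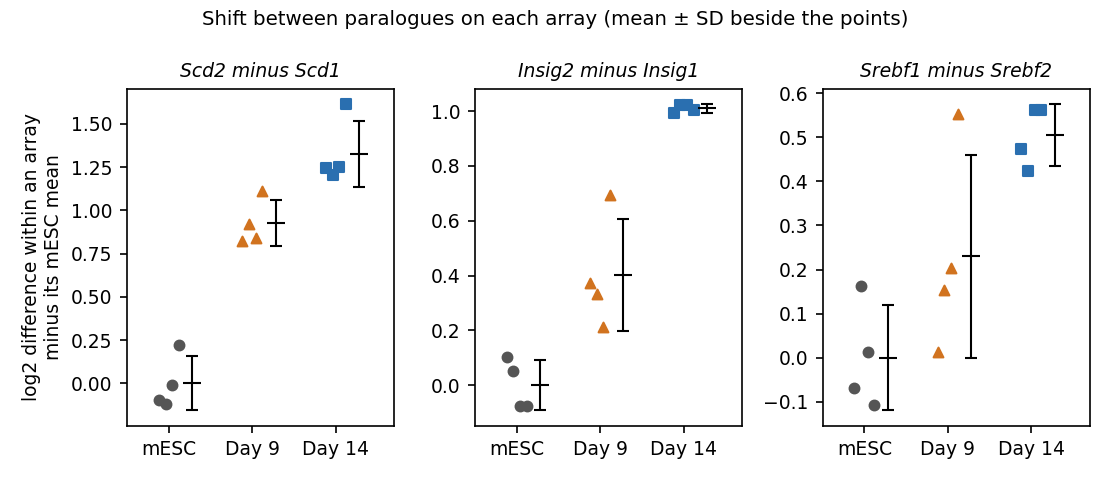
Within-array log2 difference between 2 paralogues, less its mESC mean, for each array (points) with the mean ± SD of 4 arrays beside them. Scd2 less Scd1 shifts by 0.93 at day 9 and 1.33 at day 14, Insig2 less Insig1 by 0.40 and 1.01, and Srebf1 less Srebf2 by 0.23 and 0.51.

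Other genes of the pathways gave a wider view. Of 19 further sterol genes (synthesis, uptake, storage and control), 4 rose and 1 fell at day 9, with a median of 0.53. Of all genes 20.1% were called higher and 21.0% lower there. At day 14 against mESC, 3 of the 19 rose and 1 fell, with a median of −0.18, against 22.8% and 24.0%. The 5 and 4 called against mESC are thus smaller shares than in the background. Between the days 0 rose and 3 fell, with a median of −0.26, against 10.2% and 3.60% of all genes. Soat1, which esterifies cholesterol for storage, rose by 2.62 ± 0.09 and 2.56 ± 0.09 at day 9 and day 14. Acat2, which makes acetoacetyl-CoA, rose by 1.40 ± 0.09 at day 9. Lbr, a sterol reductase of the nuclear envelope that shares its reaction with Tm7sf2, fell by 1.71 ± 0.06 at day 14 against mESC.

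Of 19 tested further fatty acid and glyceride genes, 3 rose and 7 fell at day 9, with a median of −0.74. At day 14 against mESC 2 rose and 8 fell, with a median of −0.85. The 10 of 19 called on each day compare with 41.0% and 46.8% of all genes. Between the days 1 rose and 0 fell, with a median of −0.13, against 10.2% and 3.60% of all genes. Mlxipl, which encodes the carbohydrate-responsive factor ChREBP, fell by 4.18 ± 0.10 and 3.49 ± 0.10, and Thrsp, a lipogenic protein that was above background on 2 of 4 day 9 arrays, by 4.60 ± 0.24 and 3.44 ± 0.24. Elovl7 fell by 2.77 ± 0.10 and 3.01 ± 0.10, while its relative Elovl1 rose by 2.13 ± 0.12 and 1.90 ± 0.12.

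Cell type markers also moved, and their part in the results above was not tested. Of 9 tested stem cell markers 9 fell at both days against mESC, and 4 fell and 0 rose between the days, with a median of −0.83. Of 10 cardiomyocyte markers 10 rose at both days against mESC, and 0 rose and 1 fell between the days. Their summed level, in units of the 75th percentile, was 637 to 684, 17.7 to 26.0 and 14.2 to 15.2 for stem cells and 5.31 to 6.0, 214 to 415 and 215 to 282 for cardiomyocytes in mESC, day 9 and day 14. Of 10 hepatocyte and visceral endoderm markers 8 were called higher and 1 lower at day 9, and 9 higher at day 14. Their summed levels were 1.08 to 1.24, 40.0 to 67.3 and 232 to 251. Among the 8, Fga was above background on no mESC and no day 9 array. Between the days 6 of the 10 hepatocyte and visceral endoderm markers rose and 1 fell. Of 10 macrophage markers 10 rose between the days, with summed levels of 1.56 to 1.83, 0.523 to 0.644 and 22.1 to 27.2. Most of the mESC sum came from Cd68, which read 0.50 there, and 6 of the 10 were above background on no mESC array.

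Of 7 tested adipocyte markers 3 rose and 2 fell at day 14 against mESC, with summed levels of 0.765 to 0.872, 0.506 to 0.729 and 5.74 to 6.04. The 3 that rose were Fabp4 (6.84), which macrophages also express, Pparg (2.12) and Cebpa (1.94). Cidec fell by 3.57 and Adipoq by 2.80. Adipoq, Lep and Retn were above background on no day 9 or day 14 array. Of 10 fibroblast markers 8 rose at day 9 and 9 at day 14, and 1 fell at each, with summed levels of 2.50 to 2.63, 238 to 419 and 537 to 593. Of 8 cell division genes 4 fell at day 9, 5 at day 14 and 0 between the days. Their summed level was 165 to 170 in mESC, 82.0 to 89.7 at day 9 and 65.8 to 70.5 at day 14. Of 7 smooth muscle markers 6 rose at day 9 and 6 at day 14. Of 6 endothelial markers 4 rose and 2 fell, then 3 rose and 2 fell, and of 6 tested neuron markers 3 rose and 1 fell at each day. Between the days 0 endothelial markers rose and 4 fell, with a median of −1.29 and summed levels of 7.36 to 8.69, 4.93 to 7.09 and 2.73 to 3.06 in mESC, day 9 and day 14. In that comparison 2 smooth muscle, 4 neuron, 4 fibroblast and 3 adipocyte markers rose and 1 fibroblast marker fell. Most of the endothelial sum in mESC came from Vwf and Pecam1, the 2 that fell against mESC, which read 2.62 and 0.32 there. Cdh5 and Emcn were above background on no mESC array.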

How the data were processed

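Total RNA was labelled with Cy3 and read on single-colour Agilent arrays, per the labels. The deposited processed signal is a linear intensity after background subtraction, with no scaling across arrays, from Feature Extraction 12.0.3.1, per the file headers. The deposited median signal and local background are uncorrected intensities, and the spot flags used are 0 or 1, per the file headers. The series' table held the deposited intensities, with 0 differences. The array design refers to mm9, and positions here are of GRCm38.p6 from RefSeq.

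Of 45018 spots 43379 were not controls. Outlier spots were left out, 0 spots were saturated, and spots of a probe were averaged. Each array's log2 signal was reduced by its 75th percentile. Probes were named by RefSeq accession (28223 named, 12951 not), and unnamed probes were grouped by accession, each counted as a gene. A probe was tested if well above background on at least 3 of 4 arrays of a group (28385 probes), and each gene was represented by its tested probe of highest mean signal. Group means over all 12 arrays were fitted with limma 3.58.1 in R 4.3.3, with Benjamini-Hochberg adjustment over 20875 genes, of which 15558 had a symbol. Tests are two-sided. On simulated data for day 9 against mESC, over 20875 genes, 90.0% of 100 genes changed by 1.5 and 95.0% of 100 changed by 2 were recovered, with 2 false calls. Smaller changes were not simulated, so recovery near the minimum fold of 1, where most member calls lie, was not measured.

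Arrays of a group correlated at 0.9893 or more across genes, which are not independent replicates. Deviations of same-numbered arrays correlated at −0.08 to 0.18, with 1 of 12 above 0.1. Those of differently numbered arrays correlated at −0.21 to 0.15, with 2 of 36 above 0.1. The samples were fitted as unpaired, although weak correlations cannot exclude a pairing by number. All 30 members are named. For other pathway genes the rule took up to 4 called genes of a list with the largest change in a comparison. Values of only part of these are given, picked with the values known, and the others are not reported here. Members and lists were chosen with earlier results of these data known. Alternatives were other background corrections, scalings, filters, probes per gene, array sets, variance models, call rules, a replicate block and each array left out.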

Additional observations from a re-analysis of the deposited data

Results flagged for a closer look

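In 90 groups of 4 arrays, 5 held an array far from the other 3 by Dixon's test at the 95% level, and chance alone marks about 1 in 20 groups. Hmgcs1 read 5.39 on Day 9 replicate 1, against 5.61 to 5.65 on the others. Ebp read 3.35 on Day 9 replicate 2, against 3.50 to 3.53. Scd1 read 2.31 on mESC replicate 4, against 2.57 to 2.61. Nsdhl read 0.20 on Day 14 replicate 4, against 0.13 to 0.14, and Acaca read −0.82 on Day 14 replicate 2, against −1.03 to −1.01.

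By limma's test of day 14 against day 9 with no minimum fold, 26 of 30 members were lower at day 14, against 37.9% of all genes. With the minimum fold of 1, 3.60% of all genes were called lower and 10.2% higher. With that minimum, the change against mESC differed between day 9 and day 14 in 17 members, the same calls as given above. In the sterol branch these were Hmgcs1 (−1.01), Mvk (−1.05), Pmvk (−1.03), Mvd (−1.15), Idi1 (−1.22), Fdps (−1.20), Fdft1 (−1.07), Sqle (−1.03), Cyp51 (−1.09), Tm7sf2 (−1.01), Msmo1 (−1.16), Nsdhl (−1.12), Hsd17b7 (−1.29) and Dhcr7 (−1.28). In the fatty acid branch they were Acly (−1.08), Scd1 (−1.15) and Elovl6 (−1.31).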

How the results depend on the processing

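No called change of a member reversed under any alternative. For the other named genes, the values under the alternatives were not compared. Most calls lie near the minimum fold of 1. At day 9, 5 members were called higher and 0 lower, against 20.1% and 21.0% of all genes. Quantile normalization gave 11 called, all 11 higher, the percentile over probes above background on all arrays 8 called, all 8 higher, and median scaling 1 lower. Of 20875 genes these 3 settings called 8346, 8379 and 8880. No minimum fold gave 27 (21 higher, 6 lower), against 36.3% of all genes higher and 47.0% lower. At day 14 against mESC, 4 members were called, 1 higher and 3 lower, against 22.8% and 24.0% of all genes. Normexp gave 0 higher, and median scaling 7 called (0 higher, 7 lower), where 5849 and 10971 of 20875 genes were called. No minimum fold gave 26 (5 higher, 21 lower), against 36.9% of all genes higher and 48.2% lower. Between the days 17 were called, all lower, against 3.60% of all genes called lower. The percentile over probes above background on all arrays gave 9, all 9 lower, where 593 of 20875 genes were called lower. No minimum fold gave 26, all 26 lower, against 37.9% of all genes. The difference between branch medians moved to 0.68 at day 14 with quantile normalization and to 0.87 at day 9 with the mean over probes.

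Leaving out each array in turn gave 5 to 6 called at day 9 (5 to 6 higher, 0 lower), 4 to 5 at day 14 (1 higher, 3 to 4 lower) and 14 to 17 between the days, all lower. The branch differences then ranged from 0.96 to 1.03, from 0.49 to 0.54 and from −0.39 to −0.30. The replicate block left the counts at 5 and 0, 1 and 3, and 0 and 17, and changed no call of a member.

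Over all genes normexp called 4753, 5849 and 1233 genes, against 8566, 9772 and 2879. Without a minimum fold 17398, 17764 and 13223 were called, and with probes above background on all arrays 5481, 6420 and 1303. The share of calls that were higher was 48.9%, 48.7% and 73.9%. With median scaling it was 43.5%, 36.4% and 58.9%, and with the percentile over probes above background on all arrays 56.1%, 60.2% and 79.8%. The median of all genes at day 14 against mESC ranged from −0.51 to 0.10. All members were well above background, so dimness set no bound.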
